A study of Mus musculus with 12 samples.

Results

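Krt8 and Krt18 are 2 of the 21887 protein-coding genes of the mouse annotation, and they encode the keratin pair of simple epithelia. H3K27ac, an acetylation of histone H3 found at promoters and enhancers in use, had been mapped by ChIP-seq in whole hearts of newborn mice at postnatal day 0. WT hearts (wild type, n = 3, numbered 1, 3 and 4) were set against edKO hearts (RXRab-/- in cardiomyocytes, n = 3, numbered 1, 3 and 6), which lack the retinoid X receptors alpha and beta in those cells. Whether the other cell types of an edKO heart keep both receptors was not measured, and the labels do not name the promoter that drives the deletion. Each heart is 1 biological replicate with its own list of called peaks. The pair was chosen by its covered length in this same contrast, in which Krt18 had stood lower in edKO hearts. All differences between genotypes at the pair are therefore descriptions, without a test. The locus was taken as both gene bodies with 20 kb on each side, and it held 9 of the 79293 regions in the union of the 6 lists (mm10).

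Keratins are intermediate filament proteins that assemble only as pairs of a type I and a type II chain. Keratin 8 is a type II chain and keratin 18 its type I partner, and together they build the filament network of simple epithelial cells and of the mesothelium, which in the heart is the epicardium. The Krt18 gene is unusual among type I genes in lying beside the type II genes rather than in the type I cluster. Both genes are known to be induced by retinoic acid when embryonal cells differentiate, and RXRs bind DNA with partner receptors at copies of the half-site AGGTCA.

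Krt8 (chromosome 15, 101996711 to 102004342) lies on the minus strand and Krt18 (102028216 to 102032026) on the plus strand, so the genes point away from each other across 23873 bp. The promoter windows of both genes, 250 bases before to 50 bases after the annotated start site, are shown because a called region covered one of them and not the other. They come from RefSeq, build GRCm38.p6, the same assembly as mm10, and run from chr15:102004293-102004592 (minus strand) for Krt8 and chr15:102027966-102028265 (plus strand) for Krt18. Capitals mark AGGTCA in both windows and TATAAA, read on either strand, in that of Krt8.
Krt8: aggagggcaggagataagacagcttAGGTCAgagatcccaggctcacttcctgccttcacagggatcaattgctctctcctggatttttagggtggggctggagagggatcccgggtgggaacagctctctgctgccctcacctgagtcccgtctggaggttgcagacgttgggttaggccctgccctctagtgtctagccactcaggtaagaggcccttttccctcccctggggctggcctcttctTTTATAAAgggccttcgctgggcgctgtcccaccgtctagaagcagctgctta
Krt18: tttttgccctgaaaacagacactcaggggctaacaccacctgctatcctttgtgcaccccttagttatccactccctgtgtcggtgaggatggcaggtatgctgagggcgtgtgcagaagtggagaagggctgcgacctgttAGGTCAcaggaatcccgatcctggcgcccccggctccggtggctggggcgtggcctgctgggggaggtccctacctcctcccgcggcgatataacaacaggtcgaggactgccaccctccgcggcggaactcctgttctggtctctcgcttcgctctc

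Each window held a single AGGTCA on its sense strand, at position -225 in Krt8 and -108 in Krt18, counted from the start site with -1 as the base before it. Of 32817 RefSeq promoter windows of this length, 16.3% held AGGTCA on either strand. TATAAA lay at position -1 of the Krt8 window, with an overlapping copy on the other strand, and 13.6% of all windows held it. Neither window held GGGCGG (35.6% of windows), CCGGAA (14.9%), TGANTCA (7.8%) or a direct repeat of AGGTCA with 1 base between the copies (13 of 32817 windows). The Krt18 window was 61.3% G and C with 17 CG pairs, and the Krt8 window 58.0% with 6, against medians of 52.7% and 7 over all windows. These matches are letters in the window and not sites at which a receptor was measured.

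The lists of the 6 hearts differed in length, and edKO 1 and edKO 3 had the shortest. After entries of the same stretch were joined, WT 1, 3 and 4 had 57977, 62883 and 66329 regions, and edKO 1, 3 and 6 had 47972, 48275 and 67708. The bases covered did not follow that order, with 66570290 bp in edKO 1 against 47874433 bp in edKO 3 and 59076784 to 68260351 bp in the WT hearts. Of 34877 union regions called in all WT hearts, edKO 1 also had 90.9%, edKO 3 85.5% and edKO 6 94.6%. Read depth per heart is unknown, so an uncalled region is not one shown to lack the mark. Percentiles of the authors' fold enrichment below rank a region within its own list and are not compared between lists. All 10 cardiomyocyte markers of a fixed list, among them Myh6, Tnnt2 and Ttn, had called regions in every heart.

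Between and within the keratin genes, called regions were short and sparse, and the edKO hearts had fewer of them. From the Krt8 gene to 20 kb past Krt18, each WT heart had 4 regions, while edKO 1 had 0, edKO 3 had 1 and edKO 6 had 2. These covered 1625, 2542 and 1643 bp in WT 1, 3 and 4, and 0, 272 and 667 bp in edKO 1, 3 and 6. The genotypes did not overlap on this stretch, and the edKO heart with the longest list came nearest to the WT hearts. Over the whole locus the lengths were 4475, 5761 and 4285 bp in WT 1, 3 and 4 (4840 ± 803, SD, n = 3), and 2257, 2588 and 3346 bp in edKO 1, 3 and 6 (2730 ± 558, SD, n = 3). Within 10 kb of a gene, each edKO heart stood under each WT heart at 5.76% of the 14317 gene loci tested over the genome. That share was counted on log2 lengths centred per heart, and not on bp over a window as wide as this locus. Since the pair was chosen in this contrast, nothing is read from that share. The gap over the whole locus was lost at equal list length (edKO 6 at 3346 bp, WT 4 at 3163 bp) and with lists held to a −log10 q of at least 5 (3038 and 2643 bp). In whole hearts, fewer marked cells and less mark per cell cannot be told apart.

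**Figure D1:**
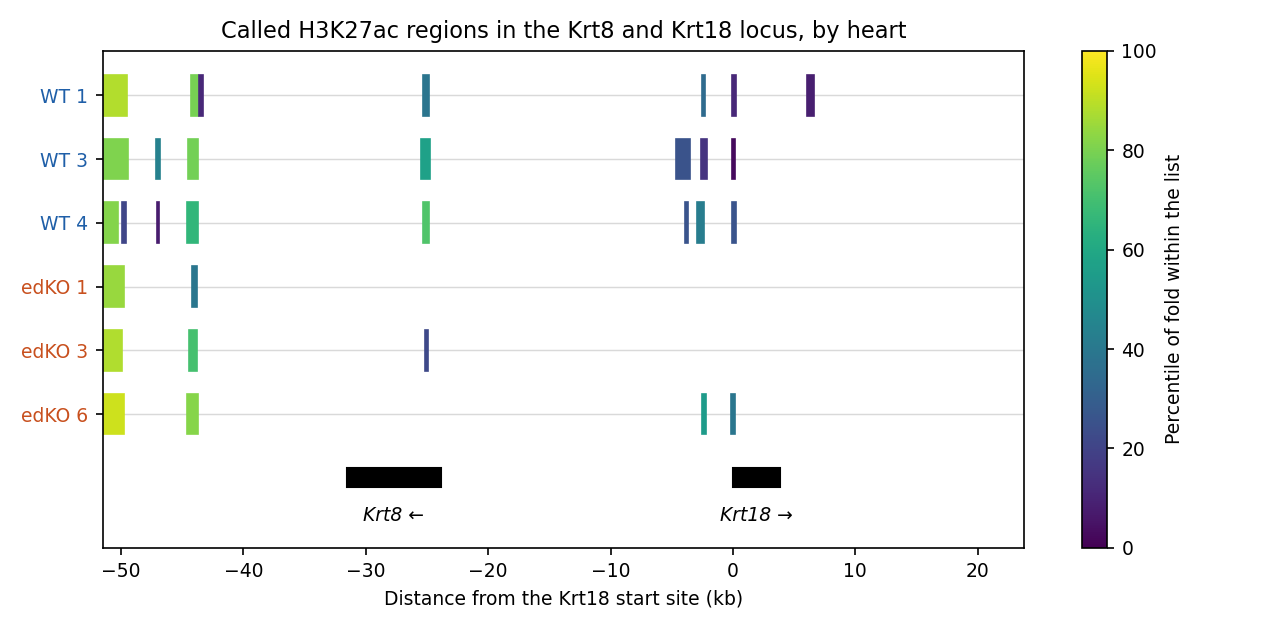
Called H3K27ac regions in the locus, 1 row per heart, with position as the distance in kb from the Krt18 start site and colour as the percentile of the authors' fold within that heart's list. Black boxes are the gene bodies and arrows their direction. The 2 regions at the left edge are present in all 6 hearts, while the rows of edKO 1 and edKO 3 are empty at Krt18.

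The Krt8 gene carried 1 region, inside the gene and not over its promoter window. This region (region 5 in map order, 102002721 to 102003428 in the union) was called in every WT heart and, of the edKO hearts, in edKO 3 alone. It was 494, 708 and 522 bp wide in WT 1, 3 and 4, and 272 bp in edKO 3. Its summits lay within 32 bp of each other in all 4 hearts, 1154 to 1186 bp downstream of the start site. The position was thus the same in the edKO heart that had it, and the called width there was below that of each WT heart. Within their lists its fold stood at percentiles 38.7, 56.9 and 72.4 in WT 1, 3 and 4 and at percentile 21.9 in edKO 3. No heart had a called base in the Krt8 promoter window, whereas 39.4% to 42.7% of all promoter windows had some in each heart.

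Krt18 carried its regions at the start site and upstream of it, and regions 7 and 8 were shared by all WT hearts and edKO 6. The start site region (region 8, 102028076 to 102028479) was 330, 250 and 333 bp wide in WT 1, 3 and 4, and 308 bp in edKO 6. Its summits lay 97, 31 and 176 bp downstream of the start site in the WT hearts and 15 bp downstream in edKO 6. It covered 116, 131 and 138 bp of the promoter window printed above in the WT hearts, 190 bp in edKO 6, and 0 bp in edKO 1 and edKO 3. Where called, the start site region of edKO 6 was thus within the range of widths of the WT hearts. Its fold stood low in the lists, at percentiles 11.1, 2.7 and 25.8 in WT 1, 3 and 4 and at 39.1 in edKO 6. Its −log10 q ran from 1.98 to 4.77, while the smallest values of the 6 lists were 1.30 to 1.33.

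The upstream region of Krt18 (region 7, 102025316 to 102026060) had the same pattern of hearts. It was 287, 432 and 520 bp wide in WT 1, 3 and 4, against 359 bp in edKO 6, and its summits lay between positions -2500 and -2331 from the start site. In WT 1 and edKO 6 the summits were 3 bp apart. Its fold percentiles were 34.4, 15.2 and 41.9 in the WT hearts and 54.4 in edKO 6. A further region (region 6, 102023535 to 102024686) was called in WT 3 (1152 bp) and WT 4 (268 bp), with no edKO heart. Past the end of Krt18, region 9 (102034292 to 102034805) was called in WT 1 alone. Regions 6 to 9 thus all stood below percentile 50 of the WT lists that held them.

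The 2 regions called in all 6 hearts lay 12168 bp or more past the end of Krt8, inside the neighbouring keratin gene Krt78. Region 1 had the highest fold of the locus in every heart, and region 3 came next in every heart but WT 4, where region 5 in Krt8 stood above it (percentile 72.4 against 65.7). Region 3 (101983585 to 101984543) was 618, 786 and 828 bp wide in WT 1, 3 and 4 and 470, 684 and 894 bp in edKO 1, 3 and 6. Its summits fell within 58 bp. Its percentiles were 79.4, 78.9 and 65.7 in the WT hearts and 39.1, 70.5 and 81.9 in the edKO hearts. Region 1 (101975629 to 101978829) crossed the edge of the locus, with 1082 bp outside it, and its highest percentiles ran from 80.6 to 92.4 over the hearts. Regions 2 (WT 3 and WT 4) and 4 (WT 1) beside them were 228 to 314 bp wide. Over the 20 kb past Krt8, called length was 2850, 3219 and 2642 bp in WT hearts versus 2257, 2316 and 2679 bp in the edKO hearts. On that stretch edKO 6 lay inside the WT range, and the other edKO hearts lay below it.

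**Figure D2:**
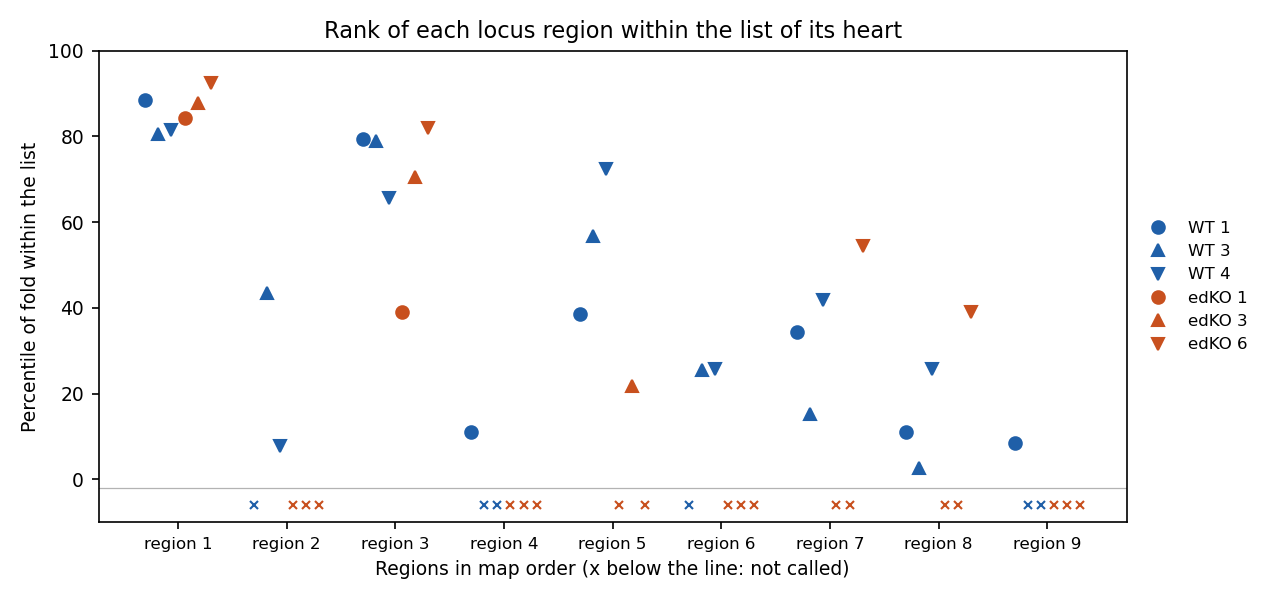
Percentile of each region's fold within the list of its heart (vertical axis, 0 to 100) for the 9 regions in map order, with blue for WT hearts, orange for edKO hearts and crosses below the line for hearts without a call. Where a heart has more than 1 called stretch in a region, the highest is shown. Regions 1 and 3 are called in all hearts, and region 8 at the Krt18 start stands at 39.1 or lower.

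None of the 9 regions (0 of 9) was called in every WT heart but in no edKO heart, a pattern of 1.08% of union regions over the genome. Regions 7 and 8 at Krt18 had the pattern of all WT hearts and edKO 6 without edKO 1 and edKO 3, which 1.64% of union regions shared. Region 5 in Krt8 had that of all WT hearts and edKO 3 without edKO 1 and edKO 6, shared by 0.188%. Regions 1 and 3 were called in all 6 hearts, as were 35.8% of union regions, and regions 4 and 9 in 1 heart, as were 32.2%. These shares describe the genome, and the hearts of the pair were known when it was chosen. Just outside the locus, 128 bp past its edge on the Krt18 side, a region (102052154 to 102052537) had the hearts of regions 7 and 8. On the other side, 1498 bp outside, a region was called in WT 4 alone.

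Krt8 and Krt18 differed in how their lengths depended on the lists. Within 10 kb of the Krt8 gene, region 5 was the only one, so the lengths were 494, 708 and 522 bp in WT hearts versus 0, 272 and 0 bp in edKO 1, 3 and 6. With every list held to the 47972 regions of the shortest one, ranked by q, these values were the same. With only regions at a −log10 q of at least 5, the WT values stood and all edKO values were 0, so that region 5 became the single region of the locus called in every WT heart but in no edKO heart. The genotypes did not overlap under any of the 3 sets of lists. Krt8 is not among the tested loci behind the 5.76% above, and no such share was worked out for the other lists. Nor was the genome share of regions called in every WT heart but in no edKO heart worked out for the stricter lists. There edKO 1 and edKO 3 again had the fewest regions, 35199 and 34506. The WT hearts had 38576 to 42388, and edKO 6 had 41421.

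Krt18 within 10 kb had 1131, 1834 and 1121 bp in WT hearts versus 0, 0 and 667 bp in edKO 1, 3 and 6. At equal list length the values were 287, 1152 and 520 bp against 0, 0 and 667 bp, and edKO 6 then lay inside the WT range. At that length the start site region was left in edKO 6 alone. With the stricter lists the values were 287, 0 and 0 bp in WT 1, 3 and 4 against 0, 0 and 359 bp in edKO 1, 3 and 6. The genotypes overlapped, and 1 heart of each genotype held all the called bases. The log2 difference in length (edKO minus WT, 200 bp added, centred per heart) was -2.14 with the deposited lists, -1.21 at equal length and 0.14 with the stricter lists. For Krt8 it was -1.44, -1.49 and -1.87. Of the edKO hearts, those with 0 bp at Krt18 in all 3 sets were edKO 1 and edKO 3, which have the shortest lists, while WT 3 and WT 4 also had 0 bp with the stricter ones. The part of list length in the result was not tested beyond these values.

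**Figure D3:**
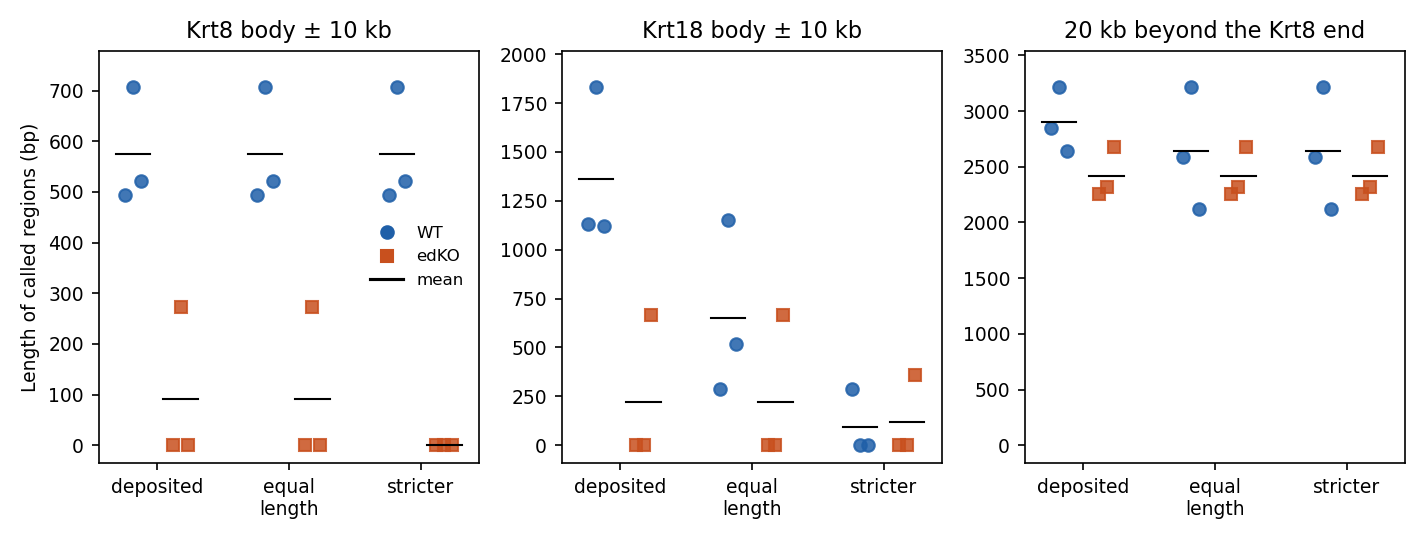
Length of called regions in bp (vertical axis) per heart for Krt8 and Krt18 (gene body with 10 kb on each side) and for the 20 kb past the end of Krt8, with the deposited lists, lists of equal length and stricter lists. Circles are WT hearts, squares edKO hearts and bars their means (n = 3 each). At Krt8 the genotypes stay apart in all 3 sets, while at Krt18 edKO 6 falls within or above the WT hearts outside the deposited lists.

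Most other keratin genes were without called regions. Of 49 keratin genes, 25 on chromosome 11 and 24 on chromosome 15, 38 had 0 bp in all hearts within 10 kb, including Krt5 and Krt14 of stratified epithelia. The shares of all protein-coding genes with 0 bp, or with called bases in every heart, were not counted. A mean of at least 500 bp was reached by 6 of the 49 keratin genes and by 14317 of all 21887 protein-coding genes. Within the gene bodies alone, 4 keratin genes were covered in all 6 hearts. These were Krt80 (2481 to 4809 bp over the hearts), Krt78 (2531 to 4161 bp), Krt10, the type I chain of differentiating epidermis (1474 to 1635 bp), and Krt222 (397 to 863 bp). Krt8 and Krt18 followed them with 4 hearts each. Krt19, a further keratin of simple epithelia, was covered in its body in WT 3 (631 bp) and edKO 6 (585 bp) alone. Krt8-ps, an annotated pseudogene on chromosome 7, had 0 bp in every heart. How reads matching more than 1 place were handled is not given in the sources used here.

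In the fit across all loci (limma, Benjamini-Hochberg adjusted), 0.105% of 14317 loci were called lower and 0% higher in edKO hearts. At an unadjusted limma p under 0.05, 663 of the 14317 loci were lower and 284 higher. These shares are the background for the counts of every gene list below. With so few calls over all loci, 0 calls in a short list is no result about its genes. Of 6 keratin genes with enough length to be tested, 0 were called in either direction. Krt18 is 1 of the 6, and since it was chosen in this contrast its p is not used. None of the others had an unadjusted limma p under 0.05. The Krt8 locus was below the minimum mean of 500 bp and was not tested. Krt80 (log2 difference 0.22, SE 0.20) and Krt78 (-0.38, SE 0.19), which shares regions 1 to 5 with the pair's locus, had limma adjusted p values of 0.876 and 0.797. The median log2 difference over the 6 was -0.19, against 0.03 over all tested loci, and 1 of the 6 is Krt18 itself.

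Genes on the Krt18 side of the locus had long called regions in every heart. Eif4b, a translation initiation factor gene, had 9862, 9428 and 9151 bp in WT hearts versus 9075, 8779 and 10343 bp in the edKO hearts. Tns2, which encodes the focal adhesion protein tensin 2, had 8831, 8866 and 8844 bp against 8613, 8034 and 9335 bp. Both genotypes overlapped at each gene. Neither passed the test (log2 differences 0.07, SE 0.12, and 0.05, SE 0.11, limma adjusted p = 0.923 and 0.936), nor did Spryd3 (0.16, SE 0.12, limma adjusted p = 0.859). On the Krt8 side, the keratin genes Krt4 and Krt79 had at most 425 bp in any heart and were not tested. Of the 6 neighbours within 100 kb, 4 were tested with limma and 0 called, also 0 at an unadjusted p under 0.05.

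The desmosome and keratin linker list, and the list of other intermediate filament genes, held 0 calls. Over all tested loci, 0.105% were called lower and 0% higher. All 16 genes of the linker list were tested, with 0 lower and 0 higher by limma and a median log2 difference of -0.03. At an unadjusted limma p under 0.05 there were 2 lower and 1 higher. The higher 1 was Krtcap2, which is on the list but does not encode a linker. Dsp, which encodes desmoplakin, the anchor of intermediate filaments at desmosomes, had 19963, 17648 and 17588 bp in WT hearts versus 19272, 15012 and 17498 bp in the edKO hearts. The desmosomal cadherin gene Dsg2 had 5896, 5558 and 4640 bp against 4637, 3244 and 3128 bp (log2 difference -0.45, SE 0.14, limma adjusted p = 0.531). The plakophilin gene Pkp4 (-0.33, SE 0.11) and Krtcap2, a subunit gene of the oligosaccharyltransferase (0.33, SE 0.14), had the other smallest unadjusted p values, with limma adjusted p = 0.551 and 0.729. Of 15 other intermediate filament genes, 10 were tested and 0 called (2 lower at an unadjusted p under 0.05), with a median of 0.02. Among them Bfsp2, a beaded filament gene of the lens, had 11662, 8554 and 7416 bp against 5062, 3760 and 5348 bp (-0.84, SE 0.15, limma adjusted p = 0.146). The glial filament gene Gfap (0.29, SE 0.14) and the other beaded filament gene Bfsp1 (-0.31, SE 0.12) had limma adjusted p values of 0.797 and 0.709.

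The regulator list held factors of simple-epithelial keratin genes and of epithelial identity, as well as nuclear receptor genes. Not all of its genes are known to act on keratin genes. They were marked in both genotypes, and 20 of 21 in every heart. The other, Elf3, had 418 bp in WT 3, 381 bp in edKO 1, 652 bp in edKO 6 and 0 bp elsewhere. Of 21 regulator genes 20 were tested with limma and 0 called (2 lower and 1 higher at an unadjusted p under 0.05), with a median log2 difference of 0.02. Grhl2, a transcription factor gene of epithelial identity, had 5650, 5075 and 4217 bp in WT hearts versus 3453, 2408 and 2787 bp in the edKO hearts. The genotypes did not overlap there, and the gene did not pass (log2 difference -0.67, SE 0.12, limma adjusted p = 0.127). Over all tested loci, on centred log2 lengths, each edKO heart stood under each WT heart at 5.76%. Its relative Grhl3 (-0.40, SE 0.14, limma adjusted p = 0.597) and the GC-box factor gene Sp1 (0.28, SE 0.10, limma adjusted p = 0.636) did not pass either.

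**Figure D4:**
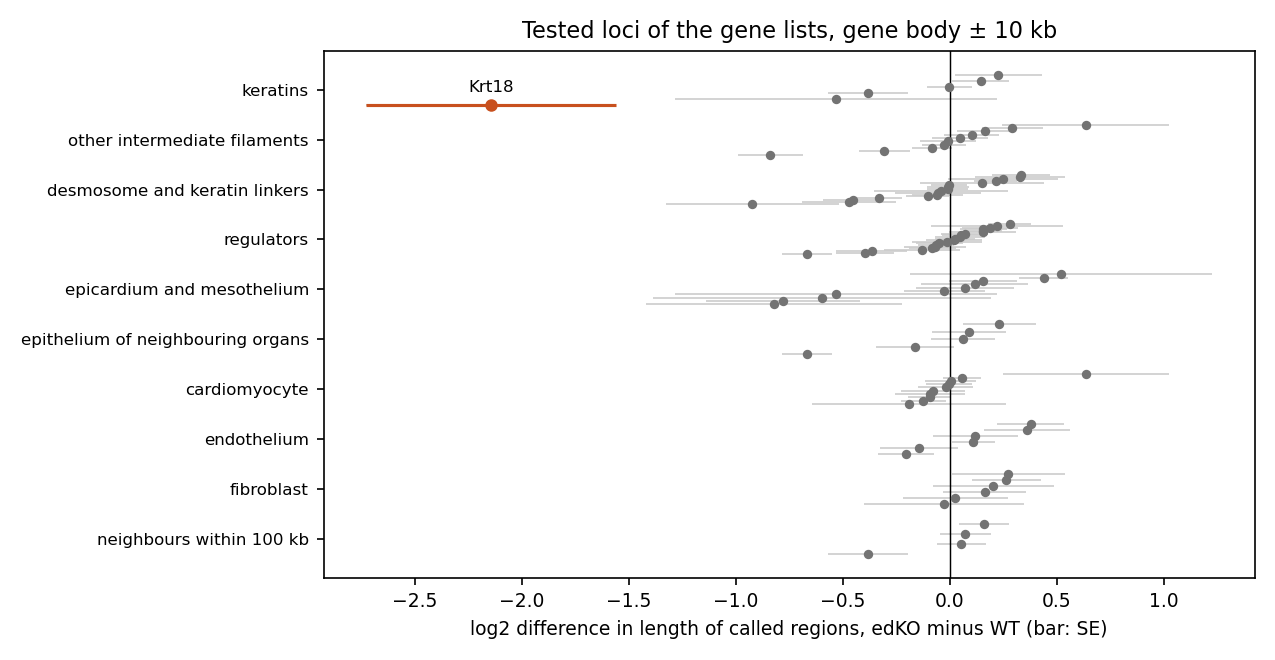
log2 difference in the length of called regions (edKO minus WT, horizontal axis, bars are SE from limma) for the tested loci of each gene list, 1 point per gene, n = 3 hearts per genotype. Krt18 is marked in orange at -2.14 and was chosen for this contrast, and no gene shown passed the threshold of 0.05 adjusted over all loci.

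Markers of the epicardium and mesothelium, the cells of the heart in which the keratin pair is best known, were covered unevenly between hearts. Summed over 17 genes within 10 kb, called length was 39547, 47793 and 34073 bp in WT hearts versus 42459, 37578 and 43592 bp in the edKO hearts, so the genotypes overlapped. Of these genes 10 were tested with limma and 0 called (1 higher at an unadjusted p under 0.05), with 5 below 0 and 5 above. Wt1, the defining epicardial factor gene, had 9824, 10238 and 6420 bp against 10559, 6655 and 10617 bp. The epicardial factor gene Tbx18 had 7714, 9887 and 8001 bp against 11663, 9938 and 11110 bp (log2 difference 0.44, SE 0.11, limma adjusted p = 0.351).

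The more restricted mesothelial genes varied between hearts, and they differed in which heart had the most called length. Upk3b, a uroplakin gene of mesothelium, had 699 bp in WT 3, 239 bp in edKO 6 and 0 bp in the other hearts. Aldh1a2, which makes retinoic acid in the epicardium, had 602, 1155 and 1208 bp in WT hearts versus 0, 1113 and 1212 bp in edKO 1, 3 and 6. Krt19, within 10 kb, had 599, 1455 and 325 bp in WT hearts versus 0, 660 and 913 bp in edKO 1, 3 and 6. Upk1b had 1304, 1294 and 682 bp in WT hearts versus 1071, 273 and 346 bp in edKO 1, 3 and 6. Gpm6a had 738, 1118 and 729 bp against 1306, 0 and 377 bp, with the most in edKO 1. Msln had 358, 1268 and 0 bp against 324, 526 and 863 bp. Upk1b (log2 difference -0.78, SE 0.36), Gpm6a (-0.82, SE 0.60) and Msln (0.52, SE 0.71) had limma adjusted p values of 0.771, 0.858 and 0.903. Lrrn4, Krt7, Muc16 and Dmkn had 0 bp in all hearts. The part of these cells in the calls at the keratin pair was not tested.

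Of 16 marker genes for the epithelium of neighbouring organs, 8 had 0 bp in every heart and 5 were covered in every heart. Among the 8 were Epcam, Nkx2-1, Foxa1 and Foxa2, which define epithelia of the lung and foregut. Among the 5 were the surfactant genes Sftpb (2542 to 4443 bp over the hearts) and Sftpc (1215 to 2273 bp). Cdh1, the epithelial cadherin gene, had 351 and 742 bp in WT 1 and WT 3, 544 bp in edKO 6 and 0 bp in WT 4, edKO 1 and edKO 3. The list summed to 15317, 14333 and 12150 bp in WT hearts versus 13181, 9172 and 12895 bp in the edKO hearts. This sum includes Grhl2, described above, which is on both lists. With limma 5 of the 16 genes were tested and 0 called, and Grhl2 was the 1 gene at an unadjusted p under 0.05, lower in edKO hearts. The surfactant genes Sftpb (0.23, SE 0.17) and Sftpc (-0.16, SE 0.18) had limma adjusted p values of 0.858 and 0.885. Cardiomyocyte, endothelial and fibroblast markers held 0 calls among 10, 6 and 6 tested genes, with median log2 differences of -0.05, 0.11 and 0.18. At an unadjusted limma p under 0.05 there was 1 higher endothelial gene, Tie1, named after its value was seen, and none in the other two.

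Over the 6 hearts, the pattern of lengths most like that of Krt18 was at Ntrk3, a neurotrophin receptor gene. Its Pearson r was 0.995 on the centred log2 scale, a value that does not weigh the size of the differences. Its values were 1133, 1438 and 982 bp in WT hearts versus 0, 0 and 482 bp in edKO 1, 3 and 6. Mgat5 (r = 0.994), Kank1 and Myl6b (0.991 each) and Flrt3 (0.989) followed, and all of these had called bases in every heart. Mgat5 had 18010, 19289 and 16179 bp in WT hearts versus 14423, 10963 and 16195 bp in edKO 1, 3 and 6. With 6 hearts and 14317 loci such values describe the ranking alone, and all points share the lists and their lengths.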

How the data were processed

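The authors deposited 1 narrowPeak list per heart for the 6 immunoprecipitated samples, which makes the calls those of single hearts. The submitters' processing notes list the tools MACS2, SAMtools, BWA and cutadapt with no version, and mm10 and GRCm38 as builds. Whether the 6 input samples served as controls is not given in the sources used here, and the inputs were not analysed. Of the deposited columns, fold is a ratio over background, significance is given as −log10 p and −log10 q, and the deposited score is 10 times −log10 q cut to a whole number. Start, end and summit are deposited as coordinates. Fold and q were used only to rank or filter regions within a list.

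Entries with the same start and end were counted as 1 region. Gene positions came from the RefSeq table of GRCm38.p6, and strand and start sites from the RefSeq promoter table. Called bp in each gene body with 10 kb of flank at both ends were taken as log2(bp + 200), centred per heart on the loci covered in all hearts. Only loci averaging at least 500 bp were kept, and limma 3.58.1 (R 4.3.3, trend, robust, genotype alone) was adjusted over all loci by Benjamini-Hochberg at 0.05. The fit was tested on simulated data. The 200 bp added shrink the difference at loci with little length. There, a region that just misses the calling cut also counts as 0 bp, which can enlarge it. With 3 hearts per genotype, an exact test of 1 region gives p = 0.1 at best. Python 3.11.15 with pandas 2.3.3 was used for the rest.

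The members, gene lists and tests were chosen with earlier results of these data known. The text names the pair, neighbours within 100 kb, the 3 genes with the smallest unadjusted p in each list, and the 5 loci most like Krt18. For the cardiomyocyte, endothelial and fibroblast lists it gives counts and medians in place of those 3 genes. Other list members, among them Dsp, Elf3, Wt1, Upk3b, Aldh1a2, Krt19, Msln, Cdh1, Myh6, Tnnt2, Ttn and Tie1, were named after their values were seen.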

Additional observations from a re-analysis of the deposited data

How the results depend on the processing

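The log2 difference of Krt18 was -2.14 (edKO minus WT) and turned to 0.14 with the stricter lists, in which 2 WT hearts had no bases left. It was -1.21 at equal list length, -0.72 over the gene body alone, and -3.41 and -0.91 with 50 and 1000 bp added in place of 200. That of Krt8 was -1.44, and -2.64 and -0.47 with 50 and 1000 bp added. That of the whole locus was -0.70. It was -1.54 over the gene bodies, -2.19 with 5 kb on each side, -0.29 with the stricter lists and -0.42 at equal length. Without single hearts these differences ran from -2.81 to -1.71 for Krt18, from -1.98 to -1.16 for Krt8 and from -0.81 to -0.50 for the locus. Regions called in every WT heart but in no edKO heart, 0 of 9, came to 1 with the stricter lists and 1 when 50% of a union region had to be covered. That count ran from 0 to 2 without single hearts: 2 without WT 1 (regions 2 and 6), 1 without edKO 3 (region 5) and 2 without edKO 6 (regions 7 and 8). The share of this pattern over the genome was not worked out for these other settings.

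Over all loci, 15 were called lower, against 9 with the stricter lists, 6 at equal length and 0 to 9 without single hearts. Higher calls numbered 0, and 0 to 1 without single hearts. With a block on the replicate number, 90 loci were lower, and the differences of Krt18 and Krt8 were -2.86 and -1.19. WT 4 and edKO 6 share their number with no other heart. The block differences therefore rest on WT 1, WT 3, edKO 1 and edKO 3, without the edKO heart that had calls at Krt18. The labels do not say that a number marks a shared litter or day, so no pairing was assumed. Deviations of same-numbered hearts correlated at 0.179 (number 1) and 0.032 (number 3) across 14317 loci. With so few hearts these correlations cannot show whether a litter or day was shared. Read depth per heart is unknown, so its part in any missing call was not tested.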
